A study of Mus musculus with 41 samples.

Results

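The binding sites of LSD1n and LSD1c, tagged isoforms of the histone demethylase LSD1, were compared in mouse cortical neurons after 1 h in KCl. The members are the sites of 2 deposited peak lists, Flag-LSD1n and Flag-LSD1c at 1 h, on chromosomes 1 to 19, without sites that overlap a peak of all 8 targets of the study. They number 4265 of the 4438 sites listed for Flag-LSD1n and 5366 of the 5480 sites listed for Flag-LSD1c. Together they make 9631 of the 488881 peaks and regions in 27 lists. The filter left in sites that lie inside the 847 joined regions that hold peaks of all 8 targets, 810 of the Flag-LSD1n and 767 of the Flag-LSD1c members. The study followed LSD1n in cultured cortical neurons with and without KCl, by chromatin immunoprecipitation with sequencing, GRO-seq and RNA-seq, in 41 samples. Of these, 14 samples of GRO-seq or RNA-seq were not used here.

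The first library came from neurons labelled R26/LSD1n and the second from neurons labelled R26/LSD1c, both primary cortical cultures at 10 days in vitro, treated with 55 mM KCl for 1 h and precipitated with the M2 antibody to the Flag tag. Each isoform has 1 library at 1 h and 1 at 0 h. The labels give neither the promoter that drives the tagged protein nor the number of cultures or animals behind a library. The lists used for comparison came from LSD1n KO and LSD1n WT neurons at the same culture age (H4K20me1, H3K4me1, H3K36me3 and RNA polymerase II, called Pol II below, in both genotypes, and H3K4me2 in LSD1n WT alone). An antibody to LSD1 itself was used at 1 h and 0 h in neurons labelled wild type, at 0 h in LSD1n WT, and in LSD1n KO neurons with no KCl time in the labels. The names inside the Pol II lists give WT where the sample labels give KO and KO where they give WT, so these are called the Pol II list labelled WT and the Pol II list labelled KO. No gene annotation of the build used, mm9, was at hand, so the labelled cell type was not checked against its markers and no gene is named.

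LSD1, also called KDM1A, is a flavin-dependent enzyme that removes methyl groups from mono- and dimethylated lysine 4 of histone H3, and it works in the CoREST complex. LSD1n is an isoform made in neurons by inclusion of a small extra exon, and the title of the series names it as a demethylase of lysine 20 of histone H4. H3K4me2 marks promoters and enhancers, H3K4me1 enhancers, H3K36me3 the bodies of transcribed genes, and H4K20me1 is found over transcribed genes among other places. KCl depolarises neurons and opens voltage-gated calcium channels, which switches on activity-dependent genes.

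Because each isoform has 1 library at 1 h, libraries were compared and no test between the isoforms was possible. The 95% intervals below cover counting error only, and sites of 1 library are not replicates. The Flag-LSD1n library held 26208203 tags and the Flag-LSD1c library 19610076 tags, within the range of 6990017 to 34859557 over all 27 libraries. The Flag-LSD1n library shares the run prefix of its title with the wild type LSD1 libraries and the H4K20me1 libraries at 0 h, the Flag-LSD1c library has another prefix, and the isoform cannot be told apart from this prefix.

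Fewer sites were listed for Flag-LSD1n than for Flag-LSD1c. The ratio of member numbers was 0.795 (0.763 to 0.828), a log2 ratio of -0.33, and Flag-LSD1n had fewer sites on 19 of 19 chromosomes, with log2 ratios from -0.52 to -0.14. No chromosome's interval excluded the ratio over all chromosomes. Before the last filter of the peak caller the numbers were closer. Per the file headers, 6872 putative peaks were found for Flag-LSD1n and 7056 for Flag-LSD1c, a log2 ratio of -0.04 (-0.09 to 0.01). The filter, which asks for 4-fold more tags than the surrounding 10 kb, then removed 35.4% of the Flag-LSD1n peaks and 22.3% of the Flag-LSD1c peaks. Peaks held 0.307% of all tags in the Flag-LSD1n library and 0.431% in the Flag-LSD1c library. A peak had to reach 15 tags in the Flag-LSD1n library and 13 in the Flag-LSD1c library.

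About as many loci were bound by both isoforms as by Flag-LSD1c alone, and fewer by Flag-LSD1n alone. Joining sites within 1 kb gave 6734 loci, of which 24.4% held Flag-LSD1n sites alone, 39.1% held Flag-LSD1c sites alone and 36.5% held both. Seen from each list, 60.4% (58.9 to 61.8) of Flag-LSD1n sites had a Flag-LSD1c site within 1 kb, and 48.8% (47.4 to 50.1) of Flag-LSD1c sites had a Flag-LSD1n site within 1 kb. The lists differ in length, and between the first 4000 sites of each the shares were 48.7% of Flag-LSD1n and 48.6% of Flag-LSD1c sites. Sites that were not shared were mostly far from the other isoform. The nearest Flag-LSD1c site lay at a median of 73.9 kb from the 1691 Flag-LSD1n sites found alone, of which 42 had one within 5 kb. The nearest Flag-LSD1n site lay at a median of 86.8 kb from the 2749 Flag-LSD1c sites found alone, of which 47 had one within 5 kb.

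Sharing fell along both lists, and levelled off late in that of Flag-LSD1c. As all entries carry a score of 1, position in the list was used as the rank, and what the authors sorted on is not stated. Within chromosomes this position followed the number in the peak's name, with median Spearman coefficients of 0.932 over the 19 chromosomes in both lists. Of the first 500 Flag-LSD1n sites 74.2% (70.1 to 78.0) had a Flag-LSD1c site within 1 kb, and of sites 3501 to 4000 in that list 47.8% (43.3 to 52.3) did. Of the first 500 Flag-LSD1c sites 60.8% (56.4 to 65.1) had a Flag-LSD1n site within 1 kb, and of sites 3501 to 4000 in that list 40.4% (36.1 to 44.8) did. The share was 44.8% in Flag-LSD1c sites 4001 to 4500, 44.6% in sites 4501 to 5000 and 44.0% in sites 5001 to 5366. The sites at the head of one list were often not at the head of the other: between the first 1000 sites of each list, 25.3% were shared.

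**Figure D1:**
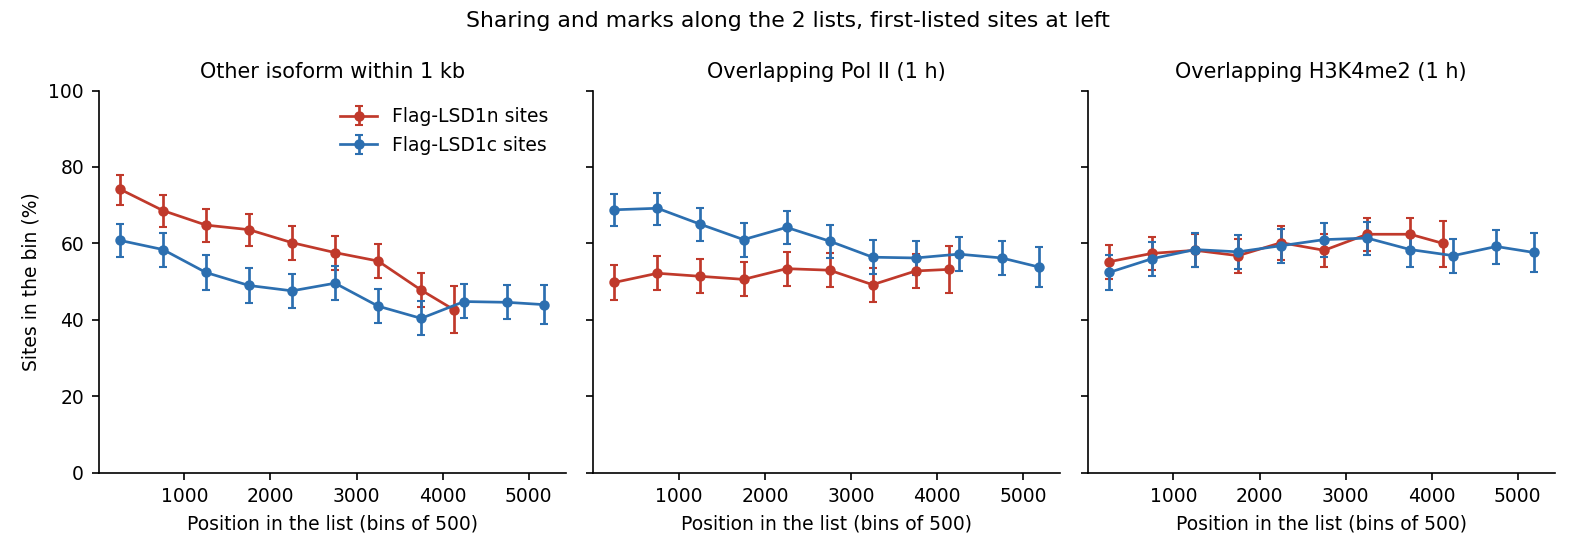
Share of Flag-LSD1n and Flag-LSD1c sites at KCl 1 h (%, vertical axis) with the other isoform within 1 kb, overlapping Pol II (list labelled WT, 1 h) and overlapping H3K4me2 (1 h), in bins of 500 sites along each list (horizontal axis). Points are shares and bars their 95% Clopper-Pearson intervals. Pol II overlap stays near 50% along the Flag-LSD1n list and starts at 68.8% in the Flag-LSD1c list, while H3K4me2 overlap runs together in both.

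Nearly all sites of both isoforms lay beside Pol II, and they differed in how close to the centre of the Pol II peak they lay. Within 1 kb of a Pol II peak of the list labelled WT at 1 h lay 94.0% of Flag-LSD1n sites and 94.1% of Flag-LSD1c sites, a difference of -0.0527 percentage points (-1.02 to 0.89). Overlap with the peak itself, which like the sites is about 200 bp wide, was found for 51.7% (50.1 to 53.2) of Flag-LSD1n and 61.0% (59.6 to 62.3) of Flag-LSD1c sites. The difference was -9.30 percentage points (-11.3 to -7.31). In the Pol II list labelled KO at 1 h the overlaps were 53.5% of Flag-LSD1n and 62.3% of Flag-LSD1c sites, a difference of -8.88 points, so the direction was the same in both lists. For comparison, 30.7% of the 18189 sites of the LSD1 antibody in wild type neurons at 1 h overlapped Pol II and 46.9% lay within 1 kb of it.

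The difference in Pol II overlap was wider at the head of the lists. Between the first 4000 sites the shares were 51.5% for Flag-LSD1n and 62.7% for Flag-LSD1c, and between the first 1000 the difference was -18.0 percentage points (-22.2 to -13.7). In bins of 500 sites, Flag-LSD1n overlap kept between 49.2% and 53.4% along the whole list. Flag-LSD1c overlap was 68.8% in the first 500 sites and 56.2% in sites 3501 to 4000. The plot of shares by position in the list shows this course beside H3K4me2, for which both isoforms ran together.

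**Figure D2:**
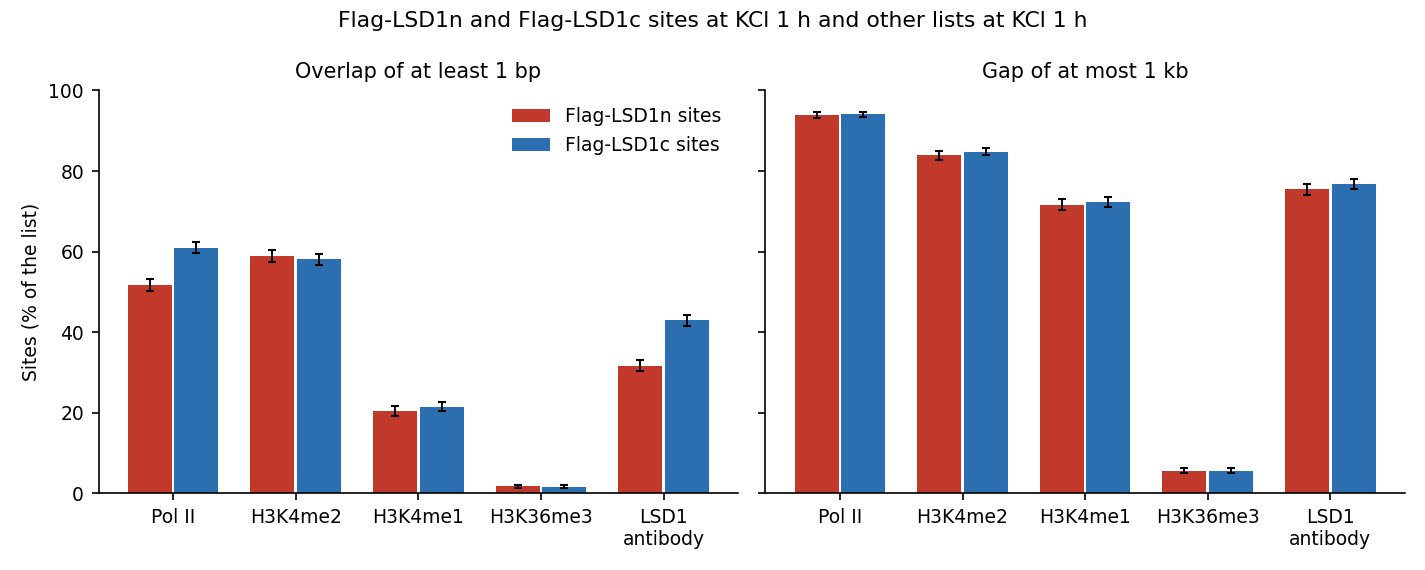
Share of Flag-LSD1n and Flag-LSD1c sites (%, vertical axis) that overlap by at least 1 bp (left) or lie within 1 kb of (right) Pol II (list labelled WT), H3K4me2, H3K4me1 (LSD1n WT), H3K36me3 (LSD1n WT) and wild type LSD1 antibody sites, all at KCl 1 h. Bars are shares of 4265 Flag-LSD1n and 5366 Flag-LSD1c sites with 95% Clopper-Pearson intervals. Overlap with Pol II and with LSD1 antibody sites is lower for Flag-LSD1n, and the shares within 1 kb lie close together.

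The same difference appeared as distance. Among sites with a Pol II centre within 1000 bp, the median distance between centres was 167 bp for Flag-LSD1n (quartiles 67 and 333 bp) and 122 bp for Flag-LSD1c (quartiles 51 and 265 bp). A centre within 100 bp was found for 33.0% of Flag-LSD1n sites and 40.9% of Flag-LSD1c sites. The median for the wild type LSD1 antibody sites was 138 bp. In the other 3 Pol II lists, labelled KO at 1 h and KO and WT at 0 h, the medians were 161 or 162 bp for Flag-LSD1n and from 120 to 125 bp for Flag-LSD1c.

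**Figure D3:**
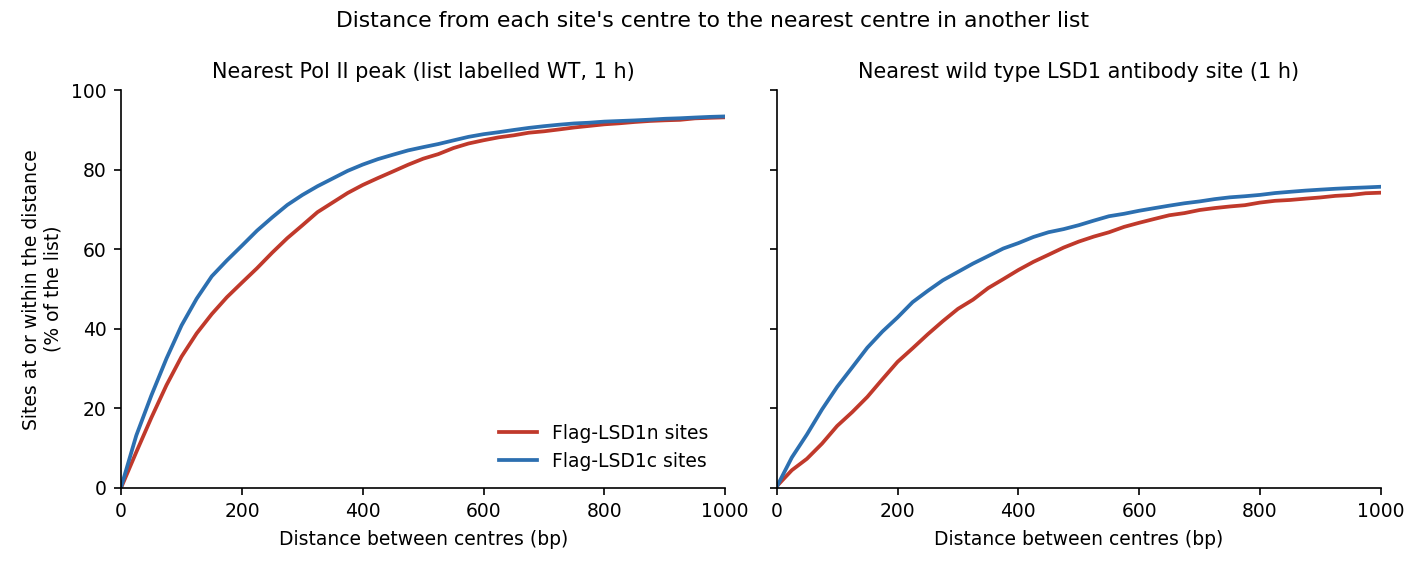
Cumulative share of Flag-LSD1n and Flag-LSD1c sites (% of each list, vertical axis) by the distance from the centre of the site to the nearest centre (bp, horizontal axis) of the Pol II list labelled WT at 1 h (left) and of the wild type LSD1 antibody list at 1 h (right). The Flag-LSD1n curve lies below the Flag-LSD1c curve from 25 to 500 bp, and at 1000 bp from Pol II they reach 93.2% for Flag-LSD1n and 93.5% for Flag-LSD1c.

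Shared loci allowed both isoforms to be placed against the same Pol II peak. The lists held 2471 pairs of a Flag-LSD1n and a Flag-LSD1c site within 1 kb in which each site was the other's nearest. Their centres lay a median of 164 bp apart, at most 50 bp apart in 21.1% of pairs and at most 500 bp apart in 89.7%. Of the 2403 pairs with a Pol II centre within 1000 bp, the Flag-LSD1n site was nearer to it in 41.3% (39.3 to 43.3) and the Flag-LSD1c site in 58.4% (56.4 to 60.4), with 8 ties. The Flag-LSD1n site alone overlapped the Pol II peak in 342 pairs, the Flag-LSD1c site alone in 599 and both in 972. Where the centres of a pair were over 100 bp apart, the median distance to Pol II was 232 bp for Flag-LSD1n and 142.5 bp for Flag-LSD1c. The Flag-LSD1c site was the nearer one in 56.7% to 57.3% of pairs in the other 3 Pol II lists.

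The sites found with 1 isoform alone showed the same offset. Pol II overlap was 51.4% for Flag-LSD1n sites alone and 60.1% for Flag-LSD1c sites alone, close to the 51.8% and 61.9% of the shared sites of Flag-LSD1n and Flag-LSD1c. Pol II within 1 kb was less frequent beside the sites alone, at 88.9% for Flag-LSD1n and 90.9% for Flag-LSD1c, than beside the shared sites, at 97.4% for both isoforms.

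From the side of Pol II, the peaks at the head of its list were the ones at which the isoforms differed most. Of 13772 Pol II peaks of the list labelled WT at 1 h, filtered in the same way, 29.6% (28.8 to 30.4) had a Flag-LSD1n site within 1 kb and 37.0% (36.2 to 37.8) a Flag-LSD1c site. A longer list of sites can reach more peaks. The ratio of member numbers was 0.795, and the shares of Pol II peaks given here were not corrected for it. Among the first 2000 peaks these shares were 46.25% (44.0 to 48.5) for Flag-LSD1n and 64.7% (62.6 to 66.8) for Flag-LSD1c. In peaks 6001 to 8000 they were 33.2% for Flag-LSD1n and 38.7% for Flag-LSD1c, and in the last 1772 peaks 5.14% and 5.02%. Among the first 2000, Flag-LSD1n without Flag-LSD1c was found at 9.95% and Flag-LSD1c without Flag-LSD1n at 28.4% of peaks. The Pol II list labelled KO gave 46.65% for Flag-LSD1n and 62.9% for Flag-LSD1c in its first 2000 peaks. Wild type LSD1 antibody sites lay within 1 kb of 79.9% of the first 2000 and 24.9% of the last 1772 peaks of the list labelled WT. These bins rest on the order of the Pol II list, which within chromosomes followed the number in the peak's name with a median Spearman coefficient of 0.999.

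**Figure D4:**
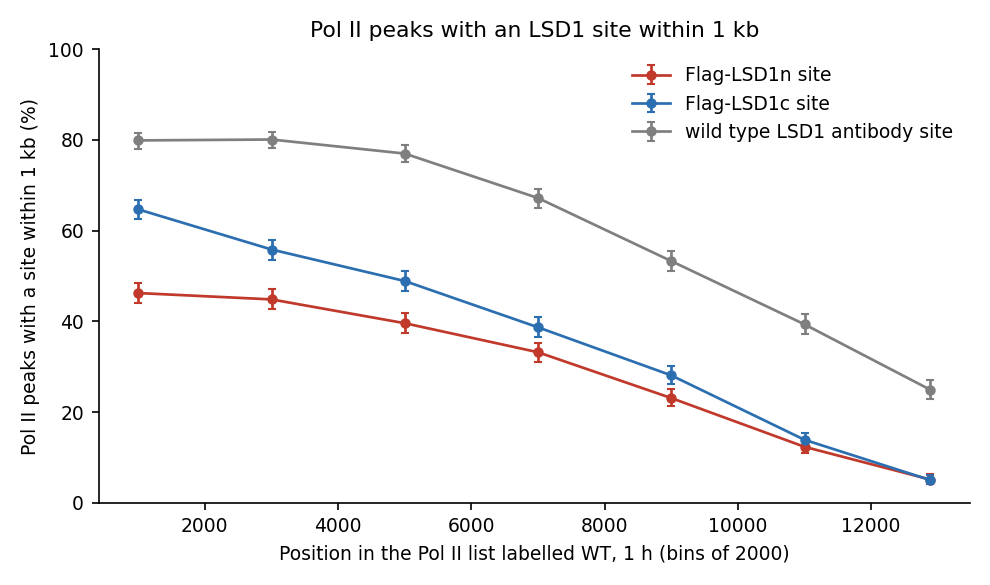
Share of Pol II peaks of the list labelled WT at KCl 1 h (%, vertical axis) with a Flag-LSD1n, Flag-LSD1c or wild type LSD1 antibody site within 1 kb, in bins of 2000 along the Pol II list (horizontal axis, the last bin holds 1772). Points are shares with 95% Clopper-Pearson intervals. The Flag-LSD1n and Flag-LSD1c lines are 46.25% and 64.7% in the first bin and meet in the last one. They are not corrected for list length, 4265 Flag-LSD1n and 5366 Flag-LSD1c sites.

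H3K4me2, a mark on which LSD1 acts, covered both sets of sites alike. At 1 h, 58.9% (57.4 to 60.4) of Flag-LSD1n sites and 58.1% (56.7 to 59.4) of Flag-LSD1c sites overlapped an H3K4me2 region, a difference of 0.871 percentage points (-1.11 to 2.85). With the H3K4me2 list of 0 h the share was 85.5% for both. The H3K4me2 library held 6990017 tags at 1 h and 9418008 at 0 h. On chromosomes 1 to 19 its regions cover 17.9 Mb at 1 h and 23.7 Mb at 0 h, so the shares at the 2 times are not on equal terms. By overlap at 1 h, the sites alone were more often in H3K4me2 than the shared sites. For Flag-LSD1n the share was 63.8% of sites alone and 55.7% of shared sites, and for Flag-LSD1c 59.99% of sites alone and 56.02% of shared sites. Within 1 kb of a region this did not hold, with 83.1% of sites alone and 84.5% of shared sites for Flag-LSD1n, and 85.2% of sites alone and 84.5% of shared sites for Flag-LSD1c. With the 0 h list the overlap was lower for the sites alone, at 83.6% against 86.8% of shared sites for Flag-LSD1n and 84.5% against 86.6% for Flag-LSD1c. At 1 h, the difference in overlap between Flag-LSD1n and Flag-LSD1c sites alone was 3.82 points (0.877 to 6.74). Within 1 kb of an H3K4me2 region at 1 h it was -2.01 points (-4.27 to 0.183). For overlap with the 0 h list it was -0.848 points (-3.10 to 1.35).

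H3K4me1 and H3K36me3 were also found at similar shares of both lists. H3K4me1 of LSD1n WT neurons at 1 h overlapped 20.4% (19.2 to 21.7) of Flag-LSD1n sites and 21.5% (20.4 to 22.6) of Flag-LSD1c sites, a difference of -1.08 points (-2.71 to 0.557). By overlap the sites alone were again more often in the mark, at 24.8% for Flag-LSD1n and 24.7% for Flag-LSD1c, than the shared sites, at 17.6% for Flag-LSD1n and 18.2% for Flag-LSD1c. Within 1 kb the shares were 72.0% of sites alone and 71.4% of shared sites for Flag-LSD1n, and 73.2% of sites alone and 71.5% of shared sites for Flag-LSD1c, with intervals of the differences that include 0. H3K4me1 of LSD1n KO neurons overlapped 22.7% of Flag-LSD1n and 24.4% of Flag-LSD1c sites. H3K36me3 of LSD1n WT neurons overlapped 72 Flag-LSD1n sites, 1.69% of the list, and 88 Flag-LSD1c sites, 1.64% of the list.

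Taken in combination, the lists differed in Pol II with and without H3K4me2. A site in both an H3K4me2 region and a Pol II peak made up 31.0% of Flag-LSD1n and 35.4% of Flag-LSD1c sites. H3K4me2 without Pol II made up 27.9% of Flag-LSD1n and 22.6% of Flag-LSD1c sites, and Pol II without H3K4me2 20.7% of Flag-LSD1n and 25.5% of Flag-LSD1c sites. Overlap with none of Pol II, H3K4me2 and H3K4me1 was found for 18.1% of Flag-LSD1n and 13.9% of Flag-LSD1c sites. With a gap of 1 kb allowed, 80.8% of Flag-LSD1n and 81.2% of Flag-LSD1c sites had both Pol II and H3K4me2, and 2.09% of Flag-LSD1n and 1.45% of Flag-LSD1c sites had none of the 3.

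A few sites lay more than 1 kb from Pol II in all 4 of its lists. They were 161 Flag-LSD1n sites, 3.77% of the list, and 206 Flag-LSD1c sites, 3.84% of the list. The other isoform lay within 1 kb of 30.4% (23.4 to 38.2) of these Flag-LSD1n sites and of 22.8% (17.3 to 29.2) of these Flag-LSD1c sites, both under the shares of the whole lists. H3K4me2 at 1 h covered 32.3% of the Flag-LSD1n and 35.4% of the Flag-LSD1c sites far from Pol II. H4K20me1 of LSD1n WT replicate 1 covered 34.2% (26.9 to 42.0) of those of Flag-LSD1n and 24.3% (18.6 to 30.7) of those of Flag-LSD1c, above its shares of the whole lists given next.

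H4K20me1 at 1 h covered a small part of both lists, and the isoforms differed by at most 2 percentage points in whole lists. In LSD1n KO neurons the share was 11.1% (10.2 to 12.1) of Flag-LSD1n sites and 11.2% (10.4 to 12.1) of Flag-LSD1c sites, a difference of -0.11 points (-1.37 to 1.16). In LSD1n WT replicate 1 it was 10.1% (9.24 to 11.1) for Flag-LSD1n and 8.20% (7.48 to 8.97) for Flag-LSD1c, a difference of 1.93 points (0.771 to 3.11). In LSD1n WT replicate 2 it was 5.53% (4.87 to 6.26) for Flag-LSD1n and 4.92% (4.36 to 5.53) for Flag-LSD1c, a difference of 0.614 points (-0.277 to 1.52). Over both WT lists the shares averaged 7.83% ± 3.25 for Flag-LSD1n and 6.56% ± 2.32 for Flag-LSD1c (SD, n = 2 lists), so the WT lists differed from each other by more than the isoforms did. The mean difference over the WT lists was 1.27 points (0.341 to 2.20), and it was 0.506 points (-0.323 to 1.35) when equal numbers of the widest regions were used, an alternative added after seeing the data. Between the first 4000 sites the KO shares were 11.4% for Flag-LSD1n and 12.3% for Flag-LSD1c. In the 0 h lists the shares were 19.3% of Flag-LSD1n and 16.5% of Flag-LSD1c sites for LSD1n KO, and 14.6% of Flag-LSD1n and 12.3% of Flag-LSD1c sites for LSD1n WT.

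**Figure D5:**
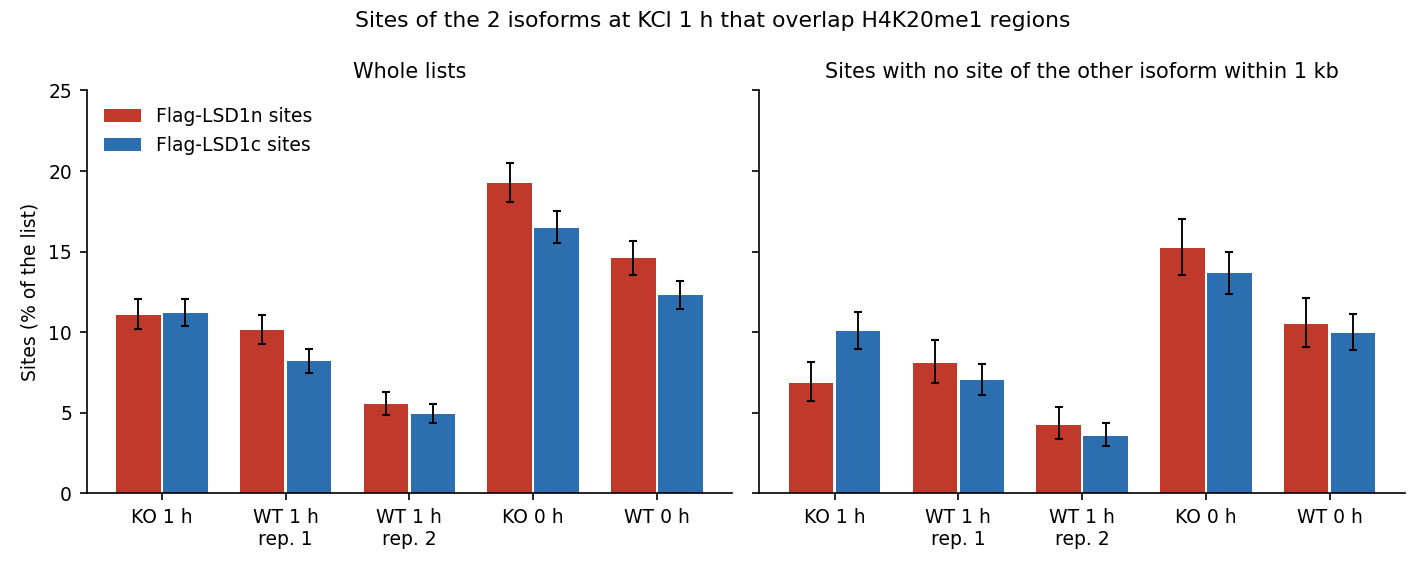
Share of Flag-LSD1n and Flag-LSD1c sites at KCl 1 h (%, vertical axis) that overlap an H4K20me1 region of each of 5 lists (horizontal axis), for whole lists (left) and for sites with no site of the other isoform within 1 kb (right). Bars are shares with 95% Clopper-Pearson intervals. In the right panel the KO list at 1 h covers 6.86% of Flag-LSD1n and 10.04% of Flag-LSD1c sites.

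The H4K20me1 lists are of very unequal extent. On chromosomes 1 to 19 the KO list at 1 h covers 11.98 Mb, WT replicate 1 covers 57.1 Mb and WT replicate 2 covers 2.92 Mb. Per Mb of H4K20me1, the KO list held 39.5 Flag-LSD1n and 50.2 Flag-LSD1c sites, WT replicate 1 held 7.56 Flag-LSD1n and 7.70 Flag-LSD1c sites, and WT replicate 2 held 80.8 Flag-LSD1n and 90.4 Flag-LSD1c sites. These counts were not corrected for the number of sites listed. The ratio of Flag-LSD1n to Flag-LSD1c was 0.787 (0.696 to 0.889) in KO, 0.982 (0.858 to 1.12) in WT replicate 1 and 0.894 (0.747 to 1.07) in WT replicate 2. Over all members it was 0.795. WT replicate 2 and KO share the run prefix of their titles, and WT replicate 1 has another. The sites alone showed 1 larger difference, in the KO list at 1 h, with 6.86% (5.70 to 8.17) of Flag-LSD1n and 10.04% (8.94 to 11.2) of Flag-LSD1c sites. That difference was -3.18 points (-4.80 to -1.49), against 1.08 points (-0.497 to 2.74) in WT replicate 1 and 0.693 points (-0.457 to 1.94) in WT replicate 2. Within 1 kb of a region, however, the sites alone of Flag-LSD1n had lower shares in all 3 lists, at 17.0% against 22.7% of Flag-LSD1c sites in KO, 30.2% against 33.9% in WT replicate 1 and 7.81% against 8.51% in WT replicate 2.

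Sites were also sorted by the lists in which H4K20me1 was called. These classes set the KO list against both WT lists, which are of unequal extent, so their sizes do not compare the genotypes. H4K20me1 in KO but in neither WT list was found at 6.54% of Flag-LSD1n and 7.27% of Flag-LSD1c sites. H4K20me1 in a WT list but not in KO was found at 8.86% of Flag-LSD1n and 7.44% of Flag-LSD1c sites. Along the lists the share in WT replicate 1 was 19.6% of the first 500 Flag-LSD1n sites and 16.8% of the first 500 Flag-LSD1c sites. In sites 3501 to 4000 it was 5.20% for Flag-LSD1n and 7.00% for Flag-LSD1c. The share in the KO list at 1 h fell too. It was 19.6% of the first 500 Flag-LSD1n and 19.4% of the first 500 Flag-LSD1c sites. In sites 3501 to 4000 the KO share was 7.0% for Flag-LSD1n and 9.4% for Flag-LSD1c.

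The antibody to LSD1 itself found most sites of both isoforms. A wild type LSD1 site at 1 h lay within 1 kb of 75.4% (74.1 to 76.7) of Flag-LSD1n and 76.8% (75.6 to 77.9) of Flag-LSD1c sites, a difference of -1.37 points (-3.09 to 0.341). Between the first 4000 sites the shares were 75.6% for Flag-LSD1n and 78.0% for Flag-LSD1c, a difference of -2.375 points (-4.22 to -0.525). Overlap with the antibody site was found for 31.7% of Flag-LSD1n and 42.9% of Flag-LSD1c sites, a difference of -11.2 points. The median distance between centres was 237.5 bp for Flag-LSD1n and 168.5 bp for Flag-LSD1c. In the reciprocal pairs with an antibody centre within 1000 bp, the Flag-LSD1n site was nearer in 38.7% and the Flag-LSD1c site in 60.7%.

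The other 3 lists of this antibody did not share that order. At 0 h in wild type neurons, sites lay within 1 kb of 76.6% of Flag-LSD1n and 73.3% of Flag-LSD1c sites, a difference of 3.37 points (1.62 to 5.10), and the Flag-LSD1n site was the nearer of a pair in 50.9% and the Flag-LSD1c site in 48.6%. In LSD1n KO neurons the share within 1 kb was 61.9% of Flag-LSD1n and 58.7% of Flag-LSD1c sites. In LSD1n WT neurons at 0 h it was 65.2% of Flag-LSD1n and 63.0% of Flag-LSD1c sites. Beside the sites alone the shares at 1 h were 66.5% for Flag-LSD1n and 72.9% for Flag-LSD1c, and at 0 h 74.6% for Flag-LSD1n and 68.9% for Flag-LSD1c. Neither the other isoform nor the antibody at 1 h was found within 1 kb of 13.3% of Flag-LSD1n and 13.9% of Flag-LSD1c sites. Of the 18189 antibody sites at 1 h, 18.5% had a Flag-LSD1n site, 23.4% a Flag-LSD1c site and 11.9% both within 1 kb. These last shares were not corrected for list length, with 4265 Flag-LSD1n and 5366 Flag-LSD1c sites.

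Few of the sites at 1 h had been listed for Flag-LSD1n before KCl, when its list held 802 sites on chromosomes 1 to 19 and that of Flag-LSD1c 3826. A Flag-LSD1n site of the 0 h list lay within 1 kb of 10.1% (9.22 to 11.05) of Flag-LSD1n and 7.81% (7.10 to 8.56) of Flag-LSD1c sites at 1 h. A Flag-LSD1c site of the 0 h list lay within 1 kb of 44.8% (43.3 to 46.3) of Flag-LSD1n and 42.2% (40.9 to 43.5) of Flag-LSD1c sites at 1 h. The same 0 h Flag-LSD1c list also reached 33.6% of the Flag-LSD1n sites and 32.7% of the Flag-LSD1c sites that were found alone at 1 h. Of the 1691 Flag-LSD1n sites alone at 1 h, 1122 had no Flag-LSD1c site within 1 kb at either time, and of the 2749 Flag-LSD1c sites alone, 2629 had no Flag-LSD1n site at either time.

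Single positions on mm9 show these classes, with distances to Pol II taken from the list labelled WT at 1 h. The first Flag-LSD1n site of its list, at chr6:125120936-125121136, has a Flag-LSD1c site centred 75 bp away and a wild type LSD1 site centred 22 bp away at 1 h, and no Pol II centre nearer than 5431 bp. The fourth site, at chr1:24619855-24620055, has a Flag-LSD1c site and a wild type LSD1 site with the same centre and Pol II centred 1 bp away, but 21 of the 27 lists call a peak within 1 kb of it. The third, at chr9:3030079-3030279, is also shared and has peaks of 23 lists within 1 kb. The first 3 Flag-LSD1n sites alone, at chr9:3036353-3036553, chr11:53953536-53953736 and chr13:120276502-120276702, lie within 1 kb of peaks of 26, 27 and 25 lists, so they also lie beside Flag-LSD1c peaks that were not members or were called at 0 h. Over the whole class, a left-out 1 h site of the other isoform lay within 1 kb of 4 of 1691 Flag-LSD1n sites alone and of 1 of 2749 Flag-LSD1c sites alone, whereas a 0 h Flag-LSD1c site lay within 1 kb of 568 of the Flag-LSD1n sites alone.

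The first 3 Flag-LSD1c sites alone lie at Pol II peaks. The one at chr1:90173882-90174082 has Pol II centred 77 bp away and H4K20me1 in all 5 lists, with peaks of 23 lists within 1 kb. The one at chr6:38383918-38384118 has Pol II centred 52 bp away, a wild type LSD1 site centred 161 bp away and H4K20me1 in none of the 5 lists. The one at chr11:97888285-97888485 has Pol II centred 79 bp away and H4K20me1 in both KO lists and in none of the WT lists. A further set of Flag-LSD1n sites, chosen after their values were seen as the first ones outside regions called with all 8 targets and with no Flag-LSD1c site within 1 kb at either time, were of mixed kind. The one at chr5:146041283-146041483 has Pol II centred 45 bp away and the nearest Flag-LSD1c site 48522 bp away. The one at chr4:33859964-33860164 has Pol II 151566 bp away and a wild type LSD1 site centred 4 bp away at 1 h. The one at chr2:27355505-27355705 has Pol II 14998 bp away, overlaps H4K20me1 in none of the KO lists and in all 3 WT lists, and has a Flag-LSD1c site centred 1525 bp away.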

How the data were processed

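Chromatin immunoprecipitation peak lists of 27 libraries were used. The submitters' processing notes name Bowtie, HOMER and mm9, with no versions. Per the file headers, the authors called Flag, LSD1 and Pol II sites at 200 bp, at least 500 bp apart, with 4-fold more tags than the surrounding 10 kb, and histone regions by stitching. The headers give a false discovery rate of 0.001 and at most 1 tag per position, and no control library. The deposited score is 1 in every entry and was not used as a measurement; the deposited values used are the start and end of each peak, and tag numbers from the headers. A deeper library can pass more peaks, so the isoforms were compared both over whole lists and over the first 4000 sites.

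Gaps between sites, overlaps of at least 1 bp and distances between centres were computed in Python (3.11.15) using scipy 1.17.1 and numpy 2.4.6 and drawn using matplotlib 3.10.9, and the calculation was tested on simulated lists. Shares have 95% Clopper-Pearson intervals, differences Newcombe intervals and ratios exact conditional Poisson intervals. The mean H4K20me1 difference over both WT lists is an exception. Its interval, 0.341 to 2.20, is symmetric about the mean. In its alternatives for the first 2000 and 1000 sites and within 1 kb, the limits are means of the Newcombe limits of both lists. These intervals are therefore not on equal terms with the reported one. Shared means a gap of at most 1 kb; wild type LSD1 sites were counted at the same gap and marks and Pol II by overlap. Positions count from 1. The positions named are the first 3 sites outside chromosome 18 of each class (Flag-LSD1n with Flag-LSD1c, Flag-LSD1n alone, Flag-LSD1c alone) and the first site alone of each isoform in H4K20me1 and in Pol II, which repeat 2 of them. The members and lists were chosen with earlier results of these data known.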

Additional observations from a re-analysis of the deposited data

Results flagged for a closer look

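The differences between isoforms, Flag-LSD1n minus Flag-LSD1c in percentage points, had opposite signs in some pairs of lists. In no case was the change between the lists tested, and each rests on 1 library per isoform.

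For H4K20me1 at 1 h, the difference in KO was below 0 and the mean difference over the WT lists above 0. The gap between them, WT minus KO, was 1.38 points over whole lists and 4.07 points over the sites alone. With a gap of 1 kb allowed, the differences of the sites alone were below 0 in KO and in both WT lists, so for these sites the opposite signs held only for overlap. Over whole lists they held within 1 kb too, at -1.11 points in KO and 0.744 and 0.239 points in the WT lists, each with an interval that includes 0. For wild type LSD1 antibody sites within 1 kb, the difference was below 0 at 1 h and above 0 at 0 h, with a gap, 0 h minus 1 h, of 4.74 points over whole lists and 12.1 points over the sites alone. The wild type LSD1 libraries at both times share the run prefix of the Flag-LSD1n libraries. For the sites alone, the signs in KO and WT at 1 h were also opposite for H3K4me1, with a gap, WT minus KO, of 1.20 points, and for H3K36me3, with a gap of 0.0731 points between shares that rest on 7 to 36 sites.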

How the results depend on the processing

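No paired analysis was possible because each isoform has 1 library at 1 h and no test was run. Of 103 alternative values for 10 results, 72 lay within the counting interval of the value reported. None changed the sign of the Pol II difference or the WT H4K20me1 difference, the only differences whose reported intervals exclude 0. The other differences each took the opposite sign in some alternatives. For H4K20me1 in KO and for wild type LSD1 sites, some of these opposite values had intervals that exclude 0. The log2 ratio of site numbers was -0.0381 before the local filter, -0.41 without sites inside joined regions that hold peaks of all 8 targets, and -0.49 for the share of tags in peaks. Sharing depended on its definition. For Flag-LSD1n sites it was 33.5% for overlap of 1 bp, 20.7% for overlap of 50%, 57.2% within 500 bp, 54.8% without the regions of all 8 targets, 48.7%, 35.2% and 25.3% for the first 4000, 2000 and 1000 of each list. For Flag-LSD1c sites the same alternatives gave 26.6%, 16.4%, 46.1% and 41.7%, and 34.95% and 25.3% for the first 2000 and 1000. Leaving out regions that need a peak of both isoforms removes shared sites by construction. The Pol II difference was -15.0 and -18.0 points in the first 2000 and 1000 sites, and -0.0527 points within 1 kb. In the first 1000 sites the H3K4me1 difference was 1.0 point and the H3K36me3 difference -0.5 points. For H4K20me1 in WT the difference was 2.38 points in the first 2000, 2.25 (-0.595 to 5.10) in the first 1000 and 2.30 with the 0 h list. Without WT replicate 1 the difference was 0.614 points (-0.277 to 1.52), and without WT replicate 2 it was 1.93 points (0.771 to 3.11). It was 0.815 points for overlap of 50%, 0.599 without the regions of all 8 targets, 0.506 with equal numbers of the widest regions and 0.492 within 1 kb, and in these 4 the interval includes 0. For H4K20me1 in KO the difference was -0.11 points (-1.37 to 1.16) as reported. With the 0 h list of KO it was 2.78 points (1.24 to 4.33), of the opposite sign. For wild type LSD1 sites the difference was -2.375, -3.00 and -3.1 points in the first 4000, 2000 and 1000 sites, with intervals that exclude 0 in the first 4000 and 2000 but not in the first 1000. It was -2.22 points without the regions of all 8 targets, with an interval that excludes 0, -9.83 for overlap of 50% and -11.2 for overlap of 1 bp. It was 3.37 points with the 0 h list, 2.21 with LSD1n WT and 3.18 with LSD1n KO. The cause of these changes was not tested. The counts before the local filter, the regions of all 8 targets, the overlap of 1 bp for LSD1 sites and equal numbers of the widest H4K20me1 regions were added after seeing the data. The planned gap of 1 kb for wild type LSD1 sites is the rule already used. Peak scores are all 1, so sites could be ranked only by list order. What the authors sorted on is not stated, and that list order follows peak strength was not tested.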
